A study of Mus musculus with 8 samples.

Results

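The nuclear genes of oxidative phosphorylation were taken from the array by name: every non-control probe whose gene name starts with Nduf, Uqcr or Atp5, is one of Sdha to Sdhd, or starts with Cox followed by a digit from 4 to 8. These were 117 probes for 83 gene names, of 41174 non-control probes on the array. The COX genes encoded in the mitochondrial DNA are written in capitals in the files and were not included. One name belongs to a protein outside the respiratory chain (Cox4nb, now Emc8, of the endoplasmic reticulum membrane complex), and Ndufaf1 and Ndufa12l (now Ndufaf2) are assembly factors of complex I.

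RNA was recovered with an anti-DAZL antibody (Abcam) from gonads of E14.5 embryos of strain MCH, in which DAZL is known as a germ cell RNA-binding protein, and was compared with RNA of the cleared lysate (input). Input and immunoprecipitate (IP) from XX and from XY gonads made 4 groups, with 2 one-colour arrays each. No transgene or mutation was given for any group. Each lysate came from 50 pooled gonads holding both germ and somatic cells, and labelled cRNA was made from 50 ng of input RNA but 1 ng of precipitated RNA. The labels do not say whether the arrays of a group came from separate lots of embryos, so p-values measure only the spread between these arrays. Arrays of XX gonads were on one slide and arrays of XY gonads on the other, and the parts of slide and sex cannot be told apart, while IP and input of the same sex shared a slide. A mock or control-antibody IP was not analysed here, so each difference is relative to the input alone.

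Oxidative phosphorylation passes electrons from NADH and succinate through complexes I to IV of the inner mitochondrial membrane to oxygen, and ATP synthase uses the proton gradient that results. Most subunits are encoded in the nucleus, translated in the cytoplasm and imported, and a few core subunits are encoded in the mitochondrial DNA. Several subunits of complex IV, cytochrome c and the ADP/ATP carrier also exist as isoforms restricted to testis, heart or muscle.

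Input arrays had 16713 to 20391 probes well above background and IP arrays 6068 to 9468. All values are log2 signals relative to the 75th percentile of their own array, and a difference of 1 is a change by a factor of 2. Of the tested probes for the germ cell genes Dazl, Ddx4, Dppa3, Pou5f1, Mael, Stra8 and Sycp3 that were above background on both inputs, 6 of 7 in XX and 6 of 8 in XY were higher in the IP at an adjusted p under 0.05, and none was lower. Of the tested probes for Sertoli, Leydig, pregranulosa, endothelial, erythroid and muscle markers that were above background on both inputs, 8 of 15 in XX and 11 of 23 in XY were lower in the IP and none was higher. The log2 of the summed signal of all 24 somatic probes was 10.1 and 10.6 for XX input, 8.07 and 9.25 for XX IP, 10.8 and 10.9 for XY input, and 9.42 and 11.1 for XY IP, most of it from erythroid genes. Foxl2 and Pecam1 were not above background on any array. In these bulk lysates, fewer cells of a type and less RNA per cell cannot be told apart, and the part of somatic RNA in the results below was not tested.

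Of the 117 probes, 104 for 79 genes were tested. The single Cox6c probe was left out for outlying spots, and 12 probes, among them the only ones for Cox4i2, Cox6a2 and Cox8b, were in no group above background on its 2 arrays. Of the tested probes, 26 entered through their inputs alone, 78 were above background throughout at least 1 IP group, and 71 were above background on all 8 arrays.

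Transcripts of the respiratory chain were mostly depleted from the DAZL IP relative to input, in gonads of both sexes. In XX gonads, 45 of the 104 probes (43.3%) were at least 4-fold lower in the IP at an adjusted p under 0.05, against 9.91% of all 18265 probes tested, and 1 was at least 4-fold higher, against 14.0%. In XY gonads, 42 (40.4%) were at least 4-fold lower, against 7.68% of all probes, and 1 was at least 4-fold higher, against 10.2%. With no fold limit, 72 probes were lower in XX and 66 in XY (22.8% and 20.6% of all probes), and 2 were higher in each sex (25.9% and 20.2% of all probes). The 104 probes had a median log2 difference of -1.83 for XX and -1.74 for XY, beside 0.09 and -0.03 over all probes tested. There were 38 probes at least 4-fold lower in both sexes, against 945 of all 18265 probes tested. In XX 95 of 104 and in XY 92 of 104 lay below the median of all probes.

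**Figure D1:**
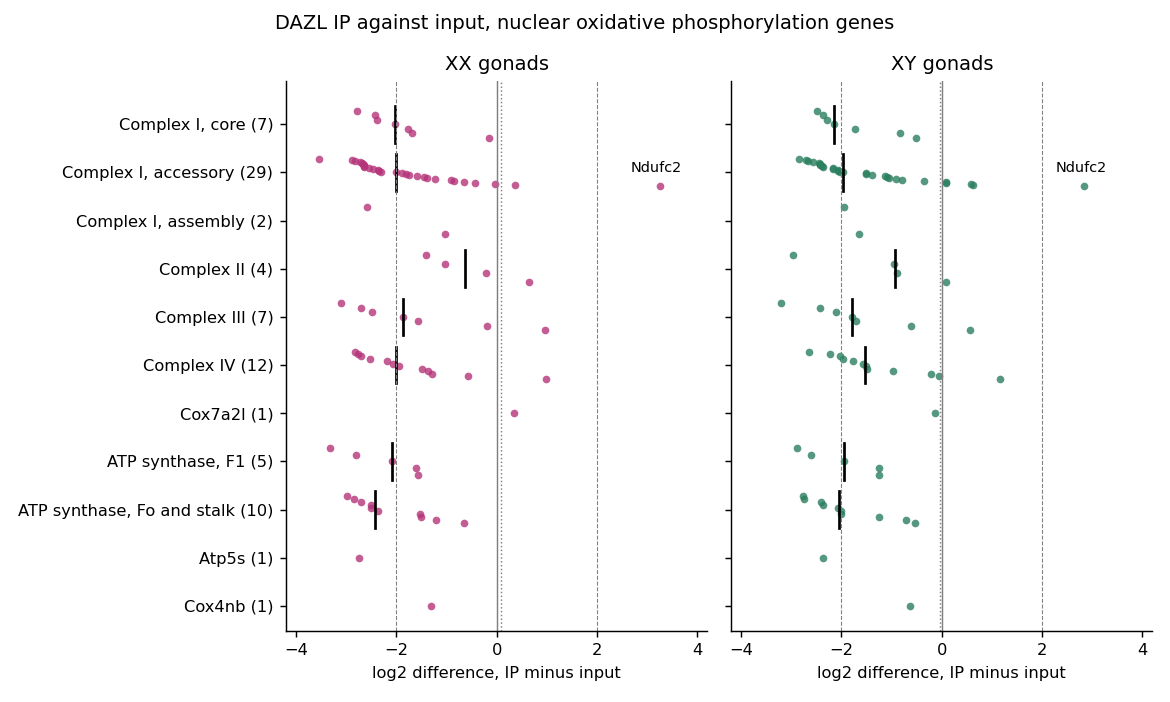
Each point is 1 gene (the tested probe with the highest mean signal), placed on the x axis by the log2 difference of DAZL IP minus input in XX (left) and XY gonads (right). Rows are complexes with the number of genes in brackets, black bars are medians of rows with more than 2 genes, dashed lines mark 4-fold, and the dotted line is the median of all tested probes. Most points lie left of zero in every complex, least so in complex II, whose median is -0.62 in XX, and Ndufc2 stands alone on the right at 3.25 in XX and 2.84 in XY.

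The probes of this family were bright in the inputs, and among all tested probes a brighter input went with a lower difference. Over the 104 member probes, mean input signal and difference had a Pearson correlation of -0.38 in XX and -0.37 in XY, beside -0.44 and -0.43 over all tested probes, whose values share the same arrays. The 4567 tested probes with the brightest mean input signal, those at or above the 75th percentile, held 85 of the 104. Within them, 43 of 85 members were at least 4-fold lower in XX, against 25.0% of all these bright probes, and 39 of 85 in XY, against 17.3%. The members' median there was -2.01 in XX and -1.80 in XY, beside -0.98 and -0.79 over all bright probes. Among the 71 members above background on all 8 arrays, 33 were at least 4-fold lower in XX, against 8.87% of such probes, and 29 in XY, against 5.49%. On the IP arrays, 77 and 83 of the 104 probes were above background in XX and 76 and 86 in XY, whereas 102 to 104 were on each input array.

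**Figure D2:**
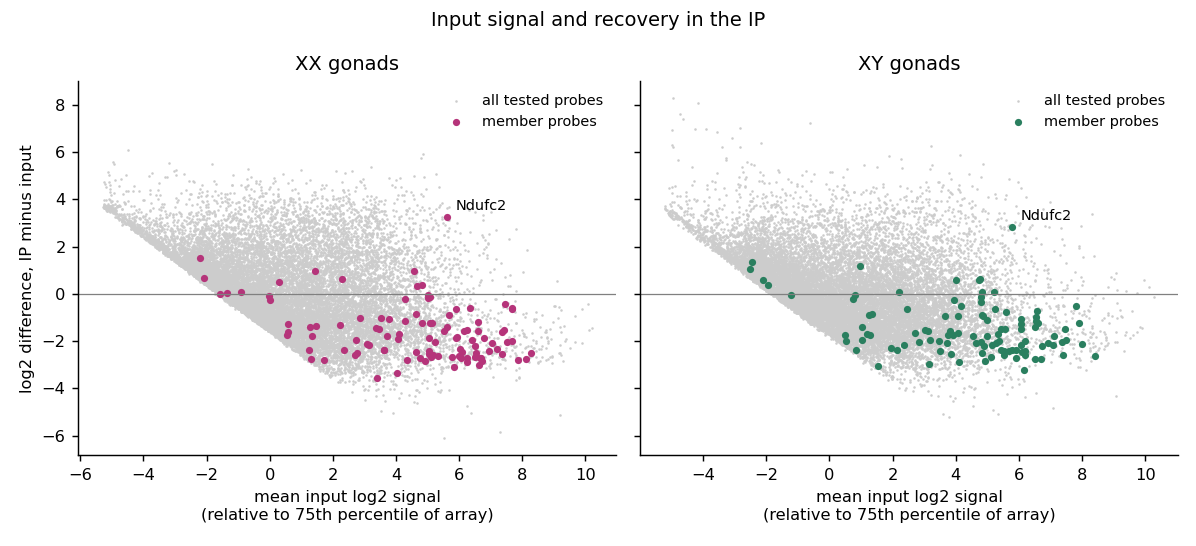
The x axis is the mean log2 signal of both inputs relative to the array's 75th percentile, and the y axis is the log2 difference of IP minus input, for XX (left) and XY gonads (right). Grey points are all 18265 tested probes and coloured points the 104 member probes. Most members lie at high input signal and below zero, with Ndufc2 above.

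Array by array, the median signal of the 104 probes was 4.91 and 5.15 for XX input against 2.84 and 3.68 for XX IP. For XY it was 4.75 and 4.94 for input against 2.72 and 3.55 for IP. Both IP medians thus lay under both input medians in each sex, and the second IP array was the higher in both. Probe by probe, both IP arrays were below both input arrays for 81 members in XX (37.5% of all probes) and 84 in XY (37.1%), and above for 5 in each sex (40.2% and 35.4%).

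The number of calls depended on single IP arrays. Without XY IP replicate 1, 25 probes were at least 4-fold lower in XY, and without XY IP replicate 2, 56 were, while the share over all probes was 5.77% and 12.1%. Without XX IP replicate 1 or 2, 35 or 57 were at least 4-fold lower in XX, and 8.01% or 13.1% of all probes. The median difference stayed negative with any array left out, from -1.40 to -2.32 in XX and from -1.41 to -2.12 in XY.

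Complex I, the NADH dehydrogenase, is built around core subunits that carry the flavin, the iron-sulphur clusters and the quinone site. Counts by complex, here and below, use the probe of each gene with the highest mean signal. They are to be read beside the 22.8% of all probes lower in XX and 20.6% in XY. At least 4-fold lower were 9.91% and 7.68% of all probes. Of 7 nuclear core genes tested, 5 were lower in the IP in XX and 5 in XY, with medians of -2.03 and -2.14. Ndufs7, which binds the cluster next to the quinone, was 5.04 and 5.07 on the XX inputs against 2.33 and 2.92 on the IPs, and 4.73 and 4.95 against 2.12 and 2.58 in XY. Its groups did not overlap in either sex, with differences of -2.43 for XX (SE 0.40, adjusted p = 0.000636) and, for XY, -2.49 (SE 0.40, adjusted p = 0.000811). Ndufv1, the NADH-binding subunit, differed by -2.03 and -2.37. Ndufs1, the largest core subunit, did not pass, at -0.15 for XX (adjusted p = 0.777) and, for XY, -0.52 (adjusted p = 0.327).

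Accessory subunits surround this core and serve its assembly and stability. Of 29 accessory genes, counted by name and so including Ndufa4, 21 were lower in XX and 18 in XY, 15 and 14 of them by at least 4-fold, and the medians were -2.01 and -1.96. Ndufa2, of the matrix arm, had 6.17 and 6.35 on XX input arrays against 3.03 and 3.74 on IP arrays, and 5.58 and 6.01 against 3.23 and 3.57 in XY. Ndufs4, whose loss is used as a mouse model of Leigh syndrome, had 4.72 and 5.12 on XX input arrays against 1.47 and 2.73 on IP arrays, and 4.83 and 5.02 against 1.29 and 2.87 in XY. For both genes every IP array was under every input array. The differences were -2.88 for XX (SE 0.42, adjusted p = 0.000286) and, for XY, -2.40 (SE 0.42, adjusted p = 0.00118) for Ndufa2, and -2.82 (SE 0.56, adjusted p = 0.00187) and -2.84 (SE 0.56, adjusted p = 0.00251) for Ndufs4. Ndufa3 was not well above background on either XX IP array and was at least 6.78-fold lower there (adjusted p = 0.000148).

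Ndufc2, a small subunit of the membrane arm, was the sole member at least 4-fold higher in the IP. Its probe, which the files place at chr7:97282065-97282124 of mm8, had 5.48 and 5.76 on XX input arrays against 8.38 and 9.36 on IP arrays. In XY it had 5.67 and 5.89 against 8.24 and 9.01. Every IP array was above every input array, with differences of 3.25 for XX (SE 0.46, adjusted p = 0.000248) and, for XY, 2.84 (SE 0.46, adjusted p = 0.000758), or 9.53-fold and 7.16-fold. Among the 18265 tested probes it ranked 733rd from the top in XX and 832nd in XY. It was at least 4-fold higher with any single array left out. It did not pass after scaling to the 50th percentile, at 1.25 in XX and 0.98 in XY. That setting lowered the median of all probes to -1.92 and -1.90. After normexp background correction it was at 1.04 in XX and 0.67 in XY, under the 4-fold limit, and in XY it did not pass without that limit either. Normexp estimated a background spread (sigma) of 613 for XY input replicate 1 and 130 for XY IP replicate 2. On every other array the estimate lay between 1.14 and 1.77. The array carries 1 probe for Ndufc2, so no second probe bears on this value.

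**Figure D3:**
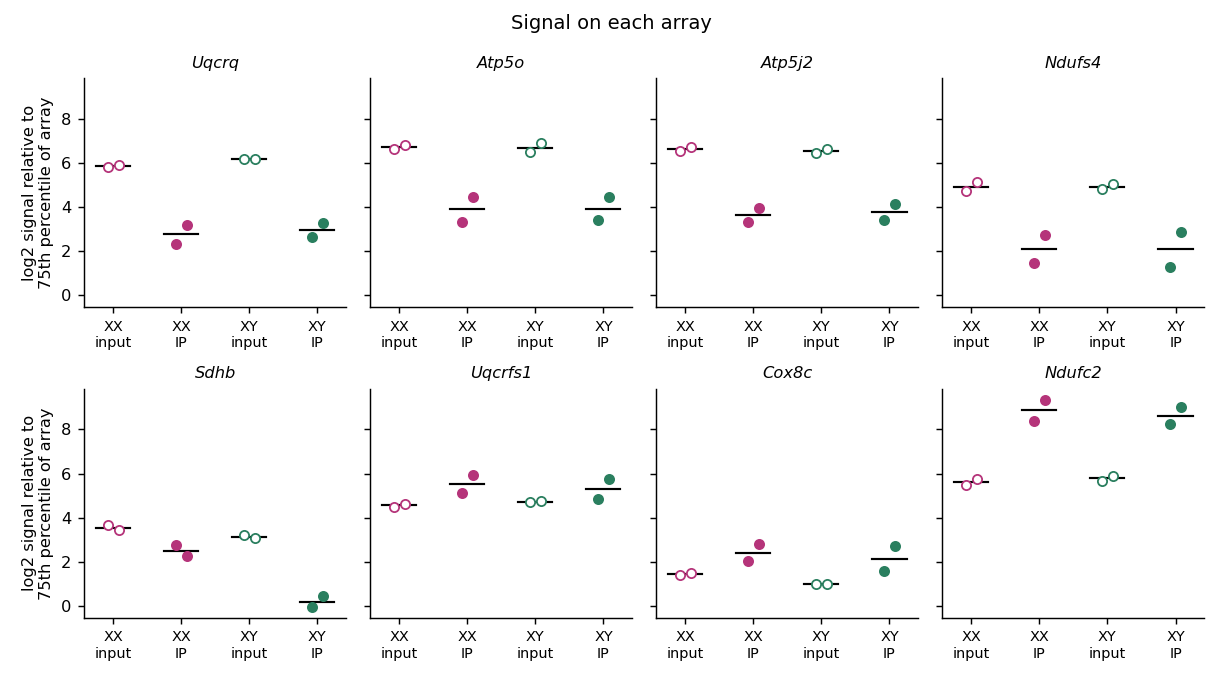
The y axis is the log2 signal relative to the array's 75th percentile for 8 genes, 1 panel each. Open circles are the input arrays, filled circles the IP arrays, and black bars the means of 2 arrays. The top row holds genes with both IP arrays under both inputs, the XY IP arrays of Sdhb lie further below their inputs than the XX ones, and Ndufc2 is higher in the IP in both sexes.

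The partner of Ndufc2 in name, Ndufc1, gave a divided picture. Its brightest probe differed by -0.66 for XX (adjusted p = 0.302) and, for XY, -0.79 (adjusted p = 0.235), and its next by -1.15 (adjusted p = 0.104) and -1.56 (adjusted p = 0.0407). A further, dim probe was called higher (adjusted p = 0.00673 in XX and 0.0158 in XY), but was not well above background on any IP array, so its size is not given. It was the other of the 2 higher calls in each sex. Ndufa6, another accessory subunit, did not pass, at 0.36 in XX and 0.58 in XY, and Ndufab1, the mitochondrial acyl carrier protein, did not pass by its brightest probe, at -0.03 and 0.62. A dim Ndufab1 probe, not above background on any IP array, was called lower in XX (adjusted p = 0.00545) and by at least 1.65-fold in XY (adjusted p = 0.00549), and a further dim one did not pass. Ndufa4, named for complex I and now placed in complex IV, was lower in XX at -1.58 (adjusted p = 0.0158) and did not pass in XY at -1.06 (adjusted p = 0.0912). Of the assembly factors, Ndufaf1 did not pass in XX at -1.02 (adjusted p = 0.07) and was lower in XY at -1.65 (adjusted p = 0.0109), and Ndufa12l was lower in both, by at least 4.11-fold in XX, where neither IP array was above background, and at -1.96 in XY. Cox4nb, outside the chain, was lower in XX at -1.31 (adjusted p = 0.0361) and did not pass in XY at -0.64 (adjusted p = 0.293).

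Complex II, the succinate dehydrogenase, feeds electrons from the citrate cycle and has no subunit encoded in the mitochondria. Its 4 genes had medians of -0.62 in XX and -0.93 in XY. Sdhb, the iron-sulphur subunit, had 3.65 and 3.42 on XX input arrays against 2.74 and 2.25 on IP arrays, but 3.21 and 3.07 against -0.07 and 0.43 in XY. The XX and XY IP arrays did not overlap, while the inputs lay close together. Its difference was -1.04 for XX (SE 0.40, adjusted p = 0.0501) and, for XY, -2.96 (SE 0.40, adjusted p = 0.00029), and the difference between the sexes was 1.92 (SE 0.57), with an adjusted p of 0.0935 that did not pass. Only 1 of the XY IP arrays was above background for Sdhb.

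Sdha, the flavoprotein, was not above background on either XX IP array and was at least 1.36-fold lower there (adjusted p = 0.0441), and it did not pass in XY at -0.90 (adjusted p = 0.194). A second, dimmer Sdha probe was not above background on any IP array. It did not pass in XX (adjusted p = 0.648) and was at least 1.03-fold lower in XY (adjusted p = 0.00933). The membrane anchors did not pass, with Sdhc at 0.64 in XX and 0.08 in XY, and Sdhd at -0.21 and -0.95.

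Complex III, the cytochrome bc1 complex, passes electrons from quinol to cytochrome c. Of 7 genes, 5 were lower in XX and 5 in XY, 3 of them by at least 4-fold in each sex. Uqcrq, a small subunit that contacts cytochrome b, fell most, in XX and in XY, among members with all 4 arrays of that sex above background. Its probe (chr11:53272392-53272451 of mm8) had 5.79 and 5.89 on XX input arrays against 2.32 and 3.18 on IP arrays, and 6.17 and 6.17 against 2.65 and 3.28 in XY. The groups were apart in both sexes, with differences of -3.10 for XX (SE 0.43, adjusted p = 0.000244) and, for XY, -3.20 (SE 0.43, adjusted p = 0.000274), or 8.55-fold and 9.21-fold lower. The hinge protein gene Uqcrh was lower by both probes, at -2.49 and -2.41 in XX and -2.11 and -2.20 in XY. The core proteins Uqcrc1 and Uqcrc2 were lower too, at -1.86 and -1.56 in XX and -1.71 and -1.80 in XY.

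Uqcrfs1, the Rieske iron-sulphur protein of the same complex, had 4.48 and 4.64 on XX input arrays against 5.12 and 5.94 on IP arrays, and 4.70 and 4.75 against 4.83 and 5.76 in XY. Both IP arrays were above both inputs in each sex, but the differences of 0.97 for XX (SE 0.45, adjusted p = 0.0929) and, for XY, 0.57 (SE 0.45, adjusted p = 0.332) did not pass. Uqcrb, which binds next to the quinone site, did not pass at -0.19 and -0.62. Under normexp correction, which left the median of all probes near zero, Uqcrfs1, Ndufa6, Cox8c and Sdhc were below zero in both sexes. They were also below zero with scaling to the 50th percentile, which shifts all probes of an array alike.

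Complex IV, the cytochrome c oxidase, reduces oxygen, and its nuclear subunits include several pairs of isoforms. Of 12 tested genes, 10 were lower in XX and 8 in XY, 6 and 3 of them by at least 4-fold, with medians of -2.0 and -1.54. The common isoforms Cox6a1 (-2.76 in XX, -2.64 in XY), Cox4i1 (-2.06, -1.51), Cox7a2 (-1.94, -1.49) and the X-linked Cox7b (-2.82, -2.22) were lower in both sexes. Cox7a1, the heart and muscle counterpart of Cox7a2, was lower as well, at -1.48 for XX (adjusted p = 0.00738) and, for XY, -1.57 (adjusted p = 0.00713). Cox5a did not pass, at -0.58 and -0.96, nor did Cox7a2l, which stabilizes supercomplexes, at 0.34 and -0.13. The muscle isoforms Cox6a2 and Cox8b and the lung isoform Cox4i2 could not be tested.

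Subunit 8 was measured for both a common and a testis isoform. Cox8a, the common form, had 6.69 and 6.73 on XX input arrays against 3.58 and 4.45 on IP arrays, and 7.0 and 7.20 against 4.75 and 5.90 in XY. Cox8c, the testis form, had 1.39 and 1.46 on XX input arrays against 2.01 and 2.80 on IP arrays, and 0.98 and 0.99 against 1.57 and 2.71 in XY. The IP arrays of Cox8a were all under its inputs and those of Cox8c all above, and both probes were above background on all 8 arrays. Cox8a was lower, at -2.69 for XX (adjusted p = 0.000907) and, for XY, -1.77 (adjusted p = 0.0119), whereas Cox8c did not pass, at 0.98 (adjusted p = 0.102) and 1.2 (adjusted p = 0.0658).

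The other testis isoform, Cox6b2, was not well above background on any IP array and was at least 1.62-fold lower in XX (adjusted p = 0.0253), and it did not pass in XY (adjusted p = 0.74). Its common counterpart Cox6b1 was above background on neither XX IP array and on 1 XY IP array, so the isoforms of this subunit could not be compared.

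**Figure D4:**
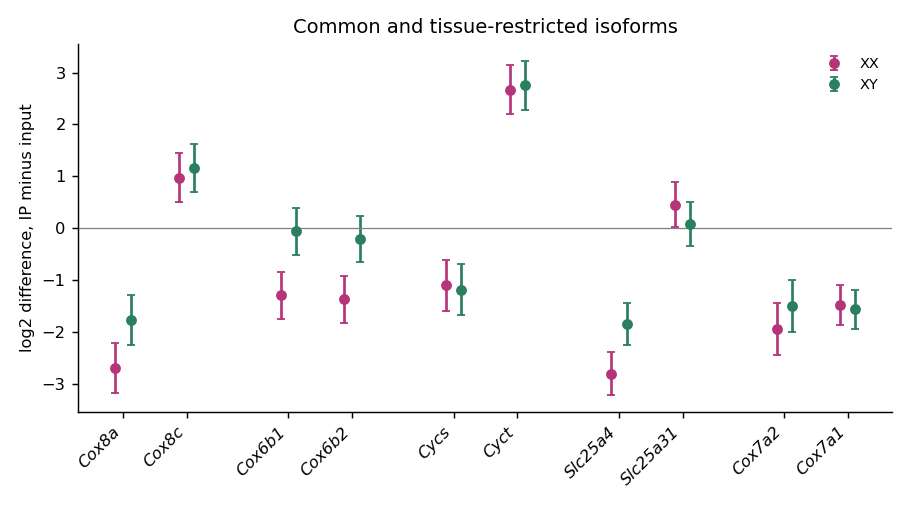
The y axis is the log2 difference of IP minus input, with XX in magenta and XY in green, and bars are standard errors from limma. Each pair puts a common isoform before its tissue-restricted counterpart, from subunits 8, 6b and 7a of complex IV, cytochrome c and the ADP/ATP carrier, by the brightest probe of each gene. Cyct lies at 2.67 and 2.76 and Cox8c near 1, while Cox7a1 lies below zero. The points of Cox6b1 and Cox6b2 rest on IP signals mostly not above background.

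ATP synthase consists of the F1 head, which makes ATP, and the Fo part with its stalks in the membrane. All 5 F1 genes were lower in XX and 4 in XY, and of 10 Fo and stalk genes 9 were lower in XX and 7 in XY. Atp5o, the stalk protein that holds the head in place, had 6.62 and 6.82 on XX input arrays against 3.32 and 4.45 on IP arrays, and 6.50 and 6.88 against 3.38 and 4.46 in XY. Atp5j2, subunit f of Fo, had 6.52 and 6.73 on XX input arrays against 3.30 and 3.96 on IP arrays, and 6.43 and 6.61 against 3.41 and 4.12 in XY. Both genes had every IP array under every input. The differences were -2.84 for XX (SE 0.50, adjusted p = 0.000874) and, for XY, -2.77 (SE 0.50, adjusted p = 0.00145) for Atp5o, and -2.99 (SE 0.42, adjusted p = 0.000262) and -2.76 (SE 0.42, adjusted p = 0.000597) for Atp5j2.

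Of the subunits that form the catalytic head, Atp5a1 was lower, at -1.57 for XX (adjusted p = 0.00973) and, for XY, -1.25 (adjusted p = 0.0348), and Atp5b was lower at -1.61 in XX (adjusted p = 0.0151), while -1.24 in XY did not pass (adjusted p = 0.0537). A second, dimmer probe of each gene was lower in both sexes, at -1.24 and -1.80 for Atp5a1 and at -2.13 (adjusted p = 0.0163) and -2.55 (adjusted p = 0.00837) for Atp5b, whose second probe was above background on 1 IP array in each sex. The dimmest Atp5b probe did not pass, at 0.51 and -1.40. The genes Atp5g1, Atp5g2 and Atp5g3 encode the same mature subunit c, yet their differences were -2.71, -1.21 and -0.65 in XX and -2.01, -0.72 and -0.52 in XY. Atp5g1 passed in both sexes, Atp5g2 in XX alone (adjusted p = 0.0487) and Atp5g3 in neither, and the differences between these genes were not tested. Atp5s (now Dmac2l), once named coupling factor s, was not above background on any IP array and was at least 1.59-fold lower in XX and 1.31-fold lower in XY. Its second probe, not above background on any IP array either, did not pass (adjusted p = 0.937 in XX and 0.497 in XY).

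Values from different probes of a gene mostly lay close together. Of 20 genes with more than 1 tested probe, 6 had probes over 4-fold apart in the same sex: Atp5b, Atp5s, Ndufab1, Ndufb2, Ndufb8 and Ndufc1. For Ndufb2 the brighter probe was at -2.67 in XX and -2.67 in XY, and the other, not above background on any IP array, did not pass. For Ndufb8 the brighter was at -2.68 and -2.44, and the other, not above background on any IP array either, did not pass. The probes of Ndufs6, all 3 of them above background on all arrays, lay between -2.65 and -2.47 in XX and between -2.18 and -2.07 in XY.

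XX and XY gonads gave similar differences gene by gene. Over the 104 probes the XX and XY differences were correlated (Pearson 0.87, Spearman 0.83), beside 0.74 and 0.76 over all tested probes, and the XX and XY values come from separate arrays. No member passed the test of the difference between the sexes (limma, adjusted p under 0.05), while 2.18% of all probes were higher and 1.12% lower in XX by it. At an unadjusted p under 0.05 there were 3 member probes, against 16.4% of all probes, and the median difference between the sexes was -0.20. They were the Sdhb probe, the dimmer Sdha probe and the dimmest Atp5b probe. This Sdha probe was not above background on any IP array, and this Atp5b probe was on 1 IP array in each sex. Without XY IP replicate 2, Sdhb had an adjusted p of 0.0353, and without XX IP replicate 2 the dimmer probe of Ndufa11, not above background on either XY IP array, one of 0.0189. In these fits 1 IP array was left in the group and was assumed to vary like the other groups, and 8.52% and 5.11% of all probes differed between the sexes.

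**Figure D5:**
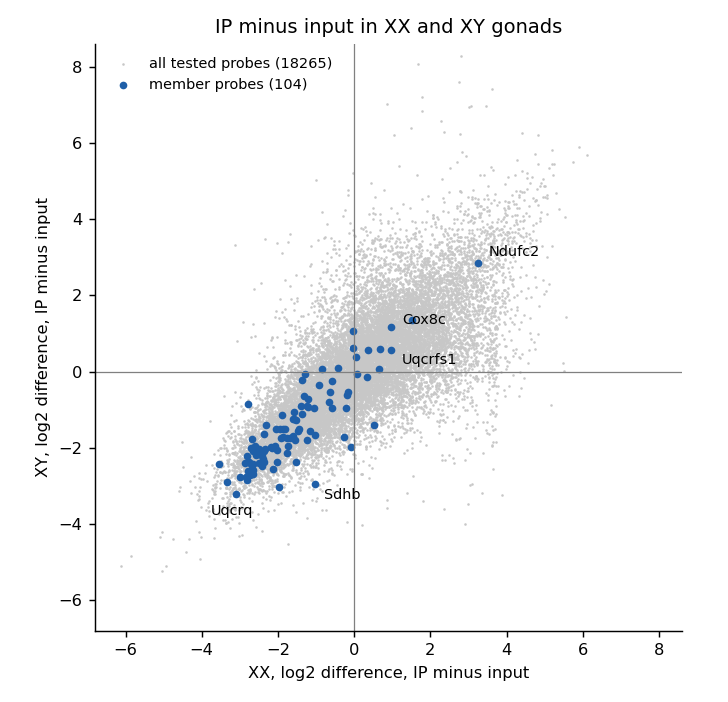
The x and y axes are the log2 differences of IP minus input in XX and XY gonads. Grey points are all 18265 tested probes and blue points the 104 member probes. The members lie along the diagonal, mostly in the lower left, with Ndufc2 in the upper right and Sdhb further below zero in XY than in XX.

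The inputs were compared to see which of these genes differed in level between XX and XY gonads. Of the 104 probes, 3 were higher in XX at an adjusted p under 0.05 (5.87% of all probes), and by limma none was higher in XY (6.1%). At an unadjusted p under 0.05, 0 were higher in XY (11.7% of all probes). Both probes of Ndufa1, an X-linked accessory subunit of complex I, were among them. The brighter one (chrX:33619077-33619136 of mm8) had 7.28 and 7.61 in XX input against 4.98 and 5.42 in XY input. The other had 6.24 and 6.47 in XX and 3.91 and 4.01 in XY. The inputs were thus well apart by both probes, with differences of 2.24 (SE 0.50, adjusted p = 0.011) and 2.40 (SE 0.51, adjusted p = 0.00874), or 4.73-fold and 5.26-fold.

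Ndufa1 was also higher on the XX IP arrays, at 6.62 and 7.40 against 4.63 and 5.95 in XY by the brighter probe, and its IP differed little from input in either sex. The other X-linked members, Ndufb11 and Cox7b, did not pass between the inputs, at 0.28 (adjusted p = 0.79) and -0.52 (adjusted p = 0.58). The remaining probe belonged to Atp5f1 (now Atp5pb), subunit b of the peripheral stalk, which had 7.38 and 7.46 in XX and 5.84 and 5.95 in XY, a difference of 1.52 (SE 0.43, adjusted p = 0.0381) that did not pass with any 1 of the 4 input arrays left out. Its second probe did not pass at 1.19 (adjusted p = 0.173). Without XX input replicate 2 no member passed, and without XY input replicate 1 the dimmer Ndufa1 probe alone did.

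Related genes were described from lists outside the family, to be read beside the 22.8% of all probes lower and 25.9% higher in XX and the 20.6% lower and 20.2% higher in XY. Of 18 tested probes for electron and nucleotide carriers and other chain genes, 9 were lower and 1 higher in XX, and 10 were lower and 1 higher in XY, with medians of -1.25 and -1.81. The probe that rose belonged to Cyct, the testis form of cytochrome c, which had 2.65 and 3.24 on XX input arrays against 5.16 and 6.08 on IP arrays, and 2.70 and 3.00 against 5.16 and 6.05 in XY. Its IP arrays were all above its inputs, at 2.67 for XX (SE 0.47, adjusted p = 0.000932) and, for XY, 2.76 (SE 0.47, adjusted p = 0.00113). The brightest probe of Cycs, the somatic form, was at -1.10 and -1.19 and did not pass in either sex. Its other probes did not pass either, at 0.22 and 0.18 in XX and -0.62 and -0.75 in XY. The testis ADP/ATP carrier Slc25a31 did not pass at 0.45 and 0.08, whereas Slc25a4 (-2.80, -1.85) and Slc25a5 (-3.19, -2.51), its widely expressed relatives, were lower.

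The citrate cycle had 9 of 19 probes lower in XX and 10 in XY and none higher, with medians of -1.13 and -1.39, and the mitochondrial ribosome had 59 of 112 lower and 11 higher in XX and 52 lower and 8 higher in XY, with medians of -1.34 and -1.12. Assembly factors of the complexes had 12 of 24 probes lower and 3 higher in XX, with a median of -0.75, and 9 lower and 2 higher in XY, with a median of -0.84. Regulators of mitochondrial biogenesis had 2 of 22 probes lower and 8 higher in XX, and 2 lower and 4 higher in XY, with medians of 0.46 and 0.32. For Tfam, which packages mitochondrial DNA, the probes above background on all 8 arrays were at -0.95 and 2.00 in XX. A further Tfam probe, above background on 4 of the 8 arrays, was called higher in XX (adjusted p = 0.000552), and its size is not given. Of other large families, read beside 9.91% of all probes at least 4-fold lower in XX and 7.68% in XY, the cytoplasmic ribosomal proteins had 63 of 125 probes at least 4-fold lower in XX and 34 in XY (medians -2.0 and -1.47), and proteasome subunits 16 and 15 of 50 (medians -1.22 and -1.53). The 3 probes for mitochondrially encoded transcripts were all at least 4-fold lower, with medians of -5.11 in XX and -4.38 in XY. The differences between these lists were not tested.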

How the data were processed

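RNA of 8 samples was hybridized to 1-colour Agilent arrays. The deposited scanner files hold processed spot intensity values, background-subtracted by the authors with Feature Extraction (9.5 in the submitters' processing notes, 9.5.3.1 per the file headers), and the mean and local background intensity. The deposited table holds log2 values that the authors scaled to the 75th percentile, with a constant that does not enter differences. Signals under 1 were set to 1, outlying spots were left out, spots of a probe were averaged, and log2 signals were taken relative to each array's 75th percentile. Dim spots carry a surrogate value, and weak IP signal therefore understates a fall. Tested probes were well above background on the 2 arrays of 1 or more groups. Linear models with 1 mean per group were fitted to all 8 arrays with limma 3.58.1 in R 4.3.3, with two-sided p-values adjusted by the Benjamini-Hochberg method over 18265 probes, after the procedure was tested on simulated data. Calls used an adjusted p under 0.05, with or without a 4-fold limit. The study gave its own fold and p limits but named no test. Where only 1 side of a comparison was above background, a change is given as "at least", against the higher of the signal itself and the lowest signal above background on each array. The number of arrays, 2 per group, limits the precision.

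Gene names are those of the array. All 117 probes were matched to the GRCm38.p6 RefSeq gene table, 100 by accession. Positions are those of the files (mm8), for which no exon annotation was used here. Genes named were the 4 largest rises and falls in each sex among probes above background on all 4 arrays of that sex, members that differed between the sexes or inputs, tissue-restricted isoforms, catalytic subunits, complex II, assembly factors and genes with discordant probes, and further genes were named after their values were seen. Members and lists were chosen with earlier results of these data known. The same numbered input and IP arrays did not deviate together (r = 0.07 in XX and 0.09 in XY), so replicate numbers were not used for pairing. Alternatives changed background correction, scaling, filter, test, arrays in the fit, replicate block and each array in turn, and the authors' table was used in place of the scanner values. The values of 1 member are not reported here.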

Additional observations from a re-analysis of the deposited data

How the results depend on the processing

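The lower medians of the respiratory chain probes held under every alternative that could move them, while the counts of calls moved. Unmoderated variances, fits of only the compared groups and the replicate block leave each log2 difference as it was, so they could not move the medians. Leaving out an array of XX gonads could not move the XY median, nor the reverse. With no filter on dim probes, 12 probes were at least 4-fold higher in the IP in XX and 11 in XY, 14 and 12 were higher with no fold limit, and 1 was higher in the XX input, while 56.8% and 54.4% of all probes were then at least 4-fold higher and 64.4% and 61.7% higher. Normexp background correction gave 75 probes at least 4-fold lower in XX and 49 in XY (11.4% and 4.39% of all probes), 0 at least 4-fold higher in either sex, 1 higher in XX and 0 in XY (14.2% and 0.224%), and medians of -2.85 and -2.37. After the data were seen, normexp was also run with outlying local background values replaced, which gave 75 at least 4-fold lower in XX and 73 in XY (11.4% and 10.9% of all probes), 0 at least 4-fold higher, 4 higher in each sex (31.8% and 28.1%), medians of -2.85 and -2.74, and, between the inputs, 5 probes higher in XX and 2 higher in XY (8.2% and 7.46%). Scaling to the 50th percentile gave 92 probes at least 4-fold lower in XX and 87 in XY (47.3% and 45.9% of all probes), 0 higher, medians of -3.84 and -3.60, and 0 differing between the inputs. Between the inputs, 18 were higher in XX and 6 in XY with only the compared groups fitted (22.6% and 21.5% of all probes), and 6 were higher in XX by quantile normalization (4.33%) and 6 by scaling to probes above background on all arrays (5.11%). Without moderated variances 46 were lower in XX and 40 in XY with no fold limit (13.7% and 10.3% of all probes), and between the inputs 0 were higher in XX and 1 higher in XY (1.85% and 1.62%). At an unadjusted p under 0.05 with no fold limit, 3 differed between the sexes (16.4% of all probes) and 8 were higher in the XX input (12.1%). With the replicate number as a block, 46 probes were at least 4-fold lower in XX and 42 in XY (9.93% and 7.72% of all probes). With 1 array left out, 35 to 57 were at least 4-fold lower in XX and 25 to 56 in XY, 51 to 79 and 44 to 79 were lower, 1 to 4 were higher and 1 at least 4-fold higher in each sex, medians ran from -2.32 to -1.40 in XX and from -2.12 to -1.41 in XY, 0 to 2 differed between the sexes, and between the inputs 0 to 4 were higher in XX and 0 higher in XY. Each of these fits left 1 array in a group, and the shares of all probes called lower, higher or differing moved with the array left out too. These ranges of counts therefore do not describe the members alone. The members' median distance from the median of all probes ran from -2.413 to -1.475 in XX and from -2.026 to -1.45 in XY. The causes were not tested.

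Single genes that did not pass turned direction under some settings. By normexp, Cox7a2l was at -1.64 in XX, Cox8c at -0.33 in XX and -0.12 in XY, Ndufa6 at -1.48 and -1.01, Sdhc at -0.73 and -0.69, Uqcrfs1 at -1.04 and -1.15, and Ndufab1 at -1.10 in XY. Replacing the backgrounds left the XX values and gave -0.081 for Cox8c, -1.25 for Ndufa6, -1.05 for Sdhc, -1.37 for Uqcrfs1 and -1.30 for Ndufab1 in XY. Scaling to the 50th percentile shifts all probes of an array alike, took the median of all probes to -1.92 in XX and -1.90 in XY, and left the members' median distance from it at -1.92 in XX. There Cox7a2l was at -1.67 in XX, Cox8c at -1.03 and -0.70, Ndufa6 at -1.65 and -1.29, Sdhc at -1.37 and -1.78, Uqcrfs1 at -1.03 and -1.29, and Ndufab1 at -1.25 in XY. By quantile normalization, Cox6b1 was at 0.20 and Cox6b2 at 0.026 in XY, and Cox7a2l at -0.10 and Ndufa6 at -0.10 in XX. Scaling to probes above background on all arrays gave -0.083 for Cox7a2l and -0.064 for Ndufa6 in XX and -0.24 for Sdhc in XY. With 1 array left out, the range crossed zero for Cox7a2l (-0.32 to 1.01 in XX, -0.60 to 0.33 in XY), Ndufa6 (-0.15 to 0.87 in XX), Ndufab1 (-0.48 to 0.41 in XX, -0.032 to 1.26 in XY), Sdhc (-0.0720 to 1.35 in XX, -0.44 to 0.60 in XY), Sdhd (-0.63 to 0.21 in XX), Atp5g3 (-1.12 to 0.071 in XY), Cox6b1 (-0.67 to 0.55 in XY) and Cox6b2 (-0.68 to 0.27 in XY). Among the 104 probes, 26 lacked an IP group with both arrays above background, which limits how large a fall could be seen.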
